A study of Rattus norvegicus with 8 samples.

Results

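The interferon-stimulated genes Isg15, Ifit2, Ifit3, Mx1, Mx2, Irf7, Irf9, Stat2 and Bst2 were followed in annulus fibrosus cells (AFCs), the cells of the fibrous outer ring of the intervertebral disc. They are the 9 rows with these gene symbols among the 31699 rows of the expression table. AFCs of Sprague Dawley rats, pooled from 8 rats per isolation, were infected with a lentivirus at a multiplicity of infection of 20 for 24 h and then put under cyclic mechanical stretch (CMS) at 20% elongation and 0.5 Hz for 36 h. In the 4 libraries labelled Lv-Ctrl the virus carried the control vector pLVX-shRNA-Puro, and in the 4 libraries labelled Lv-Piezo1 it carried the same vector with a short hairpin RNA against Piezo1, a mechanically gated cation channel. All 8 samples were therefore both virus-infected and stretched, and cells without virus or without CMS were not analysed here. Only one hairpin was used, so effects through Piezo1 and other effects of the hairpin cannot be told apart. The study's methods describe the samples of a group as biological repeats, but the labels do not tie a sample to a culture, so p-values measure the spread between these samples.

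Type I interferons are secreted when a cell senses foreign or misplaced nucleic acid. They bind the receptor pair IFNAR1 and IFNAR2, whose kinases JAK1 and TYK2 phosphorylate STAT2 and activate it. STAT2 acts with IRF9 in a complex that binds the interferon-stimulated response element (ISRE) and switches on antiviral genes, and IRF7 then amplifies interferon production. Lentiviral vectors and double-stranded RNA can trigger this pathway.

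The table gives TPM, transcript abundance scaled for transcript length and library total, so levels of different genes can be compared. It keeps no sequencing depth, and a value of 0 is only said to be listed at 0. The groups were compared with limma on log2(TPM + 1), where fold changes of genes with low TPM come out too small, over the 13103 genes with a mean of at least 1 TPM. A gene was called where its log2 fold change reached 1 in either direction and its p, adjusted by Benjamini-Hochberg, was below 0.05. Piezo1 itself had 30.1 ± 2.67 TPM in the libraries labelled Lv-Ctrl and 39.4 ± 1.75 TPM in the libraries labelled Lv-Piezo1 (SD, n = 4 each, log2 fold change 0.38, limma adjusted p = 8.6e-04). This goes against the label, so every direction below refers to the labels as given. Of the 13 AFC markers, 11 were tested, with Col1a1, Col1a2, Dcn and Lum among those expressed. The cartilage collagen Col2a1 and the tendon gene Tnmd were below 1 TPM in all 8 samples. Of the 11, 1 was called higher (Comp) and 3 lower (Dcn, Cilp and Col12a1), beside 4.91% and 2.76% of all tested genes. Comp passed the filter of 1 TPM only through the libraries labelled Lv-Piezo1, with means of 0.74 TPM labelled Lv-Ctrl and 2.86 TPM labelled Lv-Piezo1. Dcn had means of 1456 TPM in the libraries labelled Lv-Ctrl and 519 TPM in the libraries labelled Lv-Piezo1. Col1a1, which was not called, had 3282 and 5835 TPM in the same order. At a limma adjusted p below 0.05, 5 of the 11 were higher and 5 lower, beside 41.9% and 16.3% of all tested genes. The summed TPM of 8 smooth muscle and pericyte markers ranged from 686 to 708 in the libraries labelled Lv-Ctrl. In the libraries labelled Lv-Piezo1 it ranged from 4386 to 4561. Of these markers 5 were called higher and 2 lower, beside 4.91% and 2.76% of all tested genes. Those higher included Acta2 (51.2 and 1344 TPM) and Tagln (219 and 2730 TPM, means labelled Lv-Ctrl and Lv-Piezo1). The 2 lower were Kcnj8 (326 and 39.1 TPM) and Abcc9 (73.7 and 12.3 TPM, in the same order). The part of these marker differences in the results on interferon genes was not tested. The 12 leukocyte markers summed to between 21.5 and 22.9 TPM and between 36.2 and 41.7 TPM, nearly all of it from Cd14 and Cd68. The other 10, Ptprc, Csf1r, Adgre1 and C1qa among them, summed to at most 0.57 TPM in any sample, and 6 of the 12 were listed at 0 in every sample. The 6 endothelial markers found summed to at most 0.62 TPM.

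The letters of the ISRE stood near the start of some members. RefSeq promoter windows of the GRCr8 build, 250 bases before to 50 bases after the start, were found for 6 of the 9 genes. The ISRE core, GAAA then NN then GAAA (TTTC, NN and TTTC on the other strand, N being any base), stood in the windows of 3 of the 6 (Ifit3, Irf7 and Bst2), against 3.92% of the 33469 windows of all genes. The windows of Stat2, Irf9 and Mx1 held no match to these letters. A second motif, the gamma-activated site TTCNNNGAA, which reads the same on both strands, stood in the windows of Irf9 and Bst2, and in 8.87% of all windows. In Bst2 it ran into the first ISRE core. The 150 bases that end just before the start are shown for the 3 windows with the ISRE core, because these genes share the motif and only Ifit3 among them was called in the comparison below. Each is written 5′ to 3′ along the gene, with the ISRE core in capitals.

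Ifit3 (GRCr8 chr1:241527176-241527325, plus strand): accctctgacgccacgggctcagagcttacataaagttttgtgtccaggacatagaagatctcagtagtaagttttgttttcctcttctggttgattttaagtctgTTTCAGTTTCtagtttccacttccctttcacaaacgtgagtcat
Irf7 (GRCr8 chr1:205800024-205800173, minus strand): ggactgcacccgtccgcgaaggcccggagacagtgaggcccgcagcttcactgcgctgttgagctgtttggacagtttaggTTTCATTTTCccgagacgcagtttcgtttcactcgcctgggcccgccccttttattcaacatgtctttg
Bst2 (GRCr8 chr16:18254968-18255117, minus strand): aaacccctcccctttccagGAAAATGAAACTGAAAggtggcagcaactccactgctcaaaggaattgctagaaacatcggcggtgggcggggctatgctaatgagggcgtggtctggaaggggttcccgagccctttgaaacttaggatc

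The core began 44 bases before the start in Ifit3 and 69 bases before it in Irf7. In Bst2 a pair of overlapping cores began 131 and 125 bases before the start and make up the single run of capitals. A match to these letters is a description and does not show binding.

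The members covered a wide range of levels. Stat2, Ifit2, Irf9 and Irf7 were above 3.8 TPM in every sample, Ifit3 and Bst2 lay between 0.66 and 4.27 TPM, and Isg15, Mx1 and Mx2 had means over the 8 samples below the limit for testing. Of the 6 tested members, 1 was called, Ifit3, which was higher, and 5 were not. Among all 13103 tested genes 7.67% were called, 4.91% higher and 2.76% lower. Ifit3 passed the filter only through the libraries labelled Lv-Piezo1, since its mean in the libraries labelled Lv-Ctrl was under 1 TPM. In bulk RNA, fewer cells expressing a gene and less of its RNA per cell cannot be told apart.

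**Figure D1:**
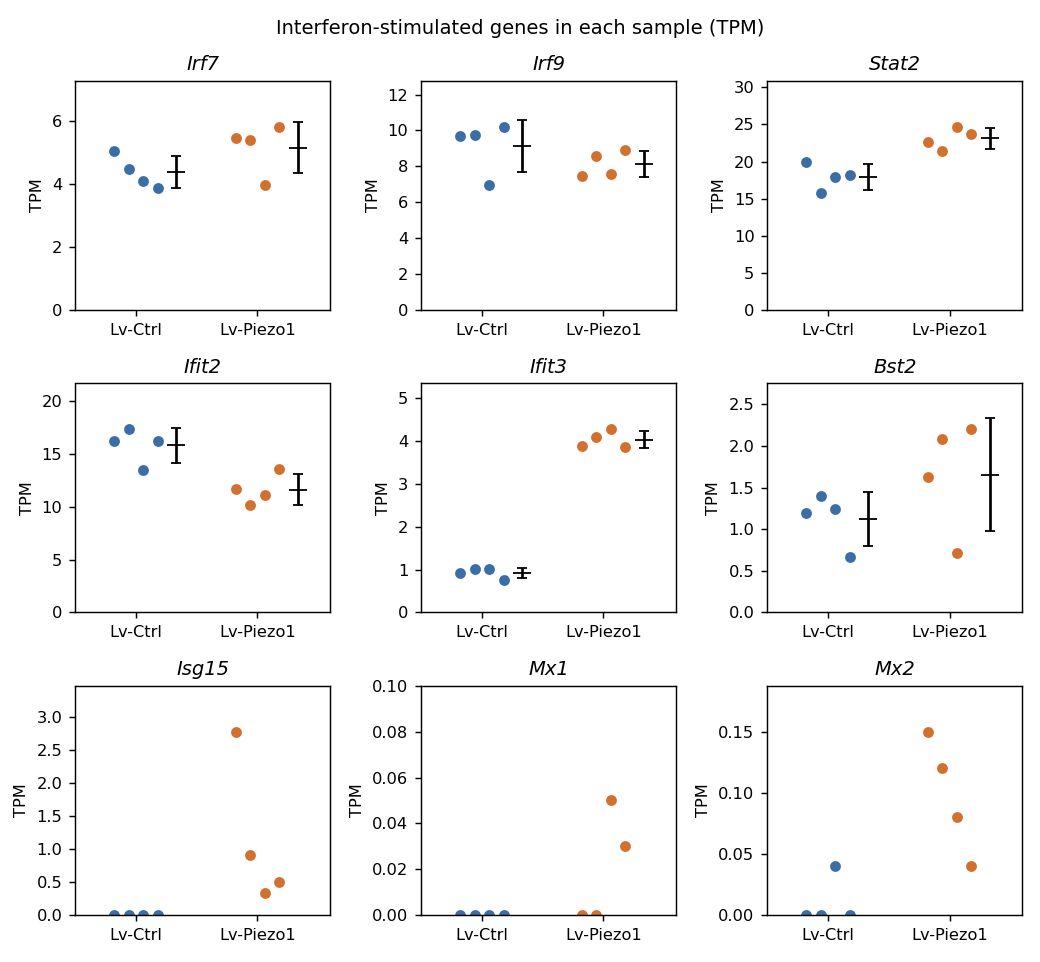
TPM of the 9 interferon-stimulated genes in each of the 4 libraries labelled Lv-Ctrl (blue) and the 4 labelled Lv-Piezo1 (orange), each panel with its own axis from 0. Black bars give the mean ± SD of genes above 0 in every sample. Ifit3 lay between 3.86 and 4.27 TPM in the libraries labelled Lv-Piezo1, against at most 1.01 TPM in the libraries labelled Lv-Ctrl, whereas the groups overlapped for Irf7, Irf9 and Bst2.

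Stat2 (ENSRNOG00000031081) encodes the signal transducer specific to type I and type III interferons. It measured 19.9, 15.7, 17.9 and 18.2 TPM in libraries 1 to 4 labelled Lv-Ctrl, and 22.6, 21.5, 24.7 and 23.7 TPM in the libraries labelled Lv-Piezo1. The libraries labelled Lv-Piezo1 all lay above the others. The means were 17.9 ± 1.70 and 23.1 ± 1.39 TPM (SD, n = 4 each). The log2 fold change was 0.35 (standard error 0.07, limma adjusted p = 0.0026), below the fold change threshold. After median-ratio scaling of the samples it was 0.18 (adjusted p = 0.062 from limma).

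Irf9 (ENSRNOG00000019478) encodes the DNA-binding partner of STAT2. Its values were 9.67, 9.72, 6.98 and 10.2 TPM in the libraries labelled Lv-Ctrl and 7.47, 8.56, 7.59 and 8.91 TPM in the libraries labelled Lv-Piezo1. Replicate 3 labelled Lv-Ctrl was the lowest of all 8 samples, and the other 3 of its group lay above every library labelled Lv-Piezo1. The log2 fold change was -0.14 (95% interval -0.40 to 0.11, limma adjusted p = 0.31). Without that replicate it was -0.25 (limma adjusted p = 0.015), while leaving out any other single sample gave a limma adjusted p of 0.25 to 0.56. With all 8 samples it was -0.30 after median-ratio scaling (limma adjusted p = 0.024) and -0.33 after quantile normalization (limma adjusted p = 0.012).

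Irf7 (ENSRNOG00000017414), which encodes the factor that drives interferon alpha genes, is itself induced strongly by interferon in most cells. It measured 5.05, 4.48, 4.10 and 3.87 TPM in the libraries labelled Lv-Ctrl and 5.47, 5.38, 3.95 and 5.81 TPM in the libraries labelled Lv-Piezo1. Replicate 3 labelled Lv-Piezo1 lay inside the range of the other group and the other 3 lay above it. The log2 fold change was 0.19 (95% interval -0.07 to 0.45, limma adjusted p = 0.19), and -0.02 after quantile normalization. The 3 transcription factors thus differed by less than 1 on the log2 scale, and their levels exceeded those of 24.9% (Irf7), 38.7% (Irf9) and 60.4% (Stat2) of the tested genes.

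The tetratricopeptide proteins of the Ifit family bind viral RNA and block its translation. Ifit2 and Ifit3 are neighbours in the RefSeq gene order of GRCr8, and their values differed in opposite directions. Ifit3 (ENSRNOG00000022839) measured 0.93, 1.01, 1.01 and 0.75 TPM in libraries 1 to 4 labelled Lv-Ctrl and 3.88, 4.10, 4.27 and 3.86 TPM in the libraries labelled Lv-Piezo1. The samples of one group lay close together and far from those of the other, with a ratio of the means of 4.35. The log2 fold change was 1.39 (standard error 0.09, limma adjusted p = 1.9e-06), and the exact two-sided permutation test gave p = 0.029, which is as low as a comparison of 4 with 4 can go. Ifit3 stayed called after median-ratio scaling (1.27), after quantile normalization (1.16) and without each of the 8 samples in turn (1.34 to 1.41). All these tests share the limit that Ifit3 passed the filter only through the libraries labelled Lv-Piezo1. With a mean TPM of at least 5 required, it was not tested.

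Ifit2 (ENSRNOG00000036604) measured 16.2, 17.3, 13.5 and 16.2 TPM in the libraries labelled Lv-Ctrl and 11.7, 10.1, 11.1 and 13.6 TPM in the libraries labelled Lv-Piezo1. The highest library labelled Lv-Piezo1, replicate 4, lay just above the lowest labelled Lv-Ctrl, replicate 3, and the groups otherwise did not overlap. The log2 fold change was -0.41 (standard error 0.10, limma adjusted p = 0.0054), below the fold change threshold. With median-ratio scaling it was -0.58, and with quantile normalization -0.59. The difference log2(Ifit3 + 1) minus log2(Ifit2 + 1) within a sample, a measure chosen after these values were seen, was -3.12 ± 0.19 in the libraries labelled Lv-Ctrl and -1.32 ± 0.20 in the libraries labelled Lv-Piezo1 (SD, n = 4 each). The next neighbour, Ifit1bl, had 0.68 and 0.775 TPM, and the related Ifit1 had 0.035 and 0.338 TPM (means labelled Lv-Ctrl and Lv-Piezo1), both below the limit for testing. Ifit genes are similar in sequence, and how the authors assigned reads shared between them is not given in the sources used here.

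Bst2 (ENSRNOG00000059900) encodes tetherin, which holds budding virions, lentiviruses included, on the cell surface. It was low, at 1.19, 1.40, 1.24 and 0.66 TPM in the libraries labelled Lv-Ctrl and 1.63, 2.08, 0.71 and 2.20 TPM in the libraries labelled Lv-Piezo1. As with Irf7, replicate 3 labelled Lv-Piezo1 lay inside the range of the other group while the other 3 lay above it. The log2 fold change was 0.30 (95% interval -0.20 to 0.79, limma adjusted p = 0.27). Without that replicate Bst2 had a log2 fold change of 0.49 (limma adjusted p = 0.028) and Irf7 one of 0.29 (limma adjusted p = 0.030), both under the fold change threshold. Leaving out any other single sample gave a limma adjusted p of 0.24 to 0.52 for Bst2 and of 0.12 to 0.38 for Irf7.

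Isg15 (ENSRNOG00000069527) encodes a ubiquitin-like protein that is attached to other proteins after interferon exposure. It was listed at 0 in all 4 libraries labelled Lv-Ctrl and at 2.77, 0.91, 0.33 and 0.50 TPM in libraries 1 to 4 labelled Lv-Piezo1. No ratio is given against a group listed at 0. The mean of log2(TPM + 1) was higher by 0.96 (exact two-sided permutation p = 0.029), and by 0.64 without replicate 1 labelled Lv-Piezo1. With no filter on low TPM, limma gave Isg15 an adjusted p of 0.030, and the difference was still below the fold change threshold. With a pseudocount of 0.1 in place of 1 it was 3.22, so its size is set by the pseudocount. Isg15 was listed at 0 only in the libraries labelled Lv-Ctrl. Of the 121 rows named as ribosomal protein genes, 8 are listed at 0 in every sample. Whether a listed 0 means absent RNA was not tested.

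The dynamin-like GTPases Mx1 and Mx2, classical markers of an interferon response, were close to 0 throughout. Mx1 (ENSRNOG00000001959) was listed at 0 in 6 of the 8 samples and reached 0.05 and 0.03 TPM in replicates 3 and 4 labelled Lv-Piezo1. Mx2 (ENSRNOG00000001963) was listed at 0 in 3 libraries labelled Lv-Ctrl and at 0.04 TPM in replicate 3, and measured 0.15, 0.12, 0.08 and 0.04 TPM in the libraries labelled Lv-Piezo1. The groups overlapped for both genes (exact two-sided permutation p = 0.43 for Mx1 and p = 0.057 for Mx2). Neither gene reached 0.2 TPM in any sample.

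The order of the levels was nearly the same in both groups. In the libraries labelled Lv-Ctrl it ran Stat2, Ifit2, Irf9, Irf7, Bst2, Ifit3 and then Mx2, with Isg15 and Mx1 listed at 0. The ranges of Stat2 and Ifit2 overlapped, as did those of Bst2 and Ifit3. In the libraries labelled Lv-Piezo1 Ifit3 stood above Bst2 without overlap and its range overlapped that of Irf7, while Stat2 no longer overlapped Ifit2. Isg15 overlapped Bst2 there. The 9 genes summed to between 44.7 and 52.9 TPM in the libraries labelled Lv-Ctrl and between 52.7 and 58.6 TPM in the libraries labelled Lv-Piezo1, most of it from Stat2 and Ifit2.

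Without the fold change threshold, 3 of the 6 tested members had an adjusted p below 0.05 (Ifit3 and Stat2 higher, Ifit2 lower). Of all tested genes 58.2% did, 41.9% higher and 16.3% lower. The groups did not overlap in 2 of the 6, both higher. They did not overlap in 54.2% of all tested genes, 39.8% higher and 14.5% lower. The median log2 fold change of the 6 was 0.24, and that of all tested genes 0.14. Median-ratio scaling brought the latter to -0.02 and quantile normalization to -0.0020. Of the called genes 51.4% and 49.4% were then higher, against 64.1% on the deposited TPM. Relative to the median of all genes, the log2 fold changes were 1.24 for Ifit3, 0.21 for Stat2, 0.15 for Bst2, 0.05 for Irf7, -0.28 for Irf9 and -0.56 for Ifit2.

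**Figure D2:**
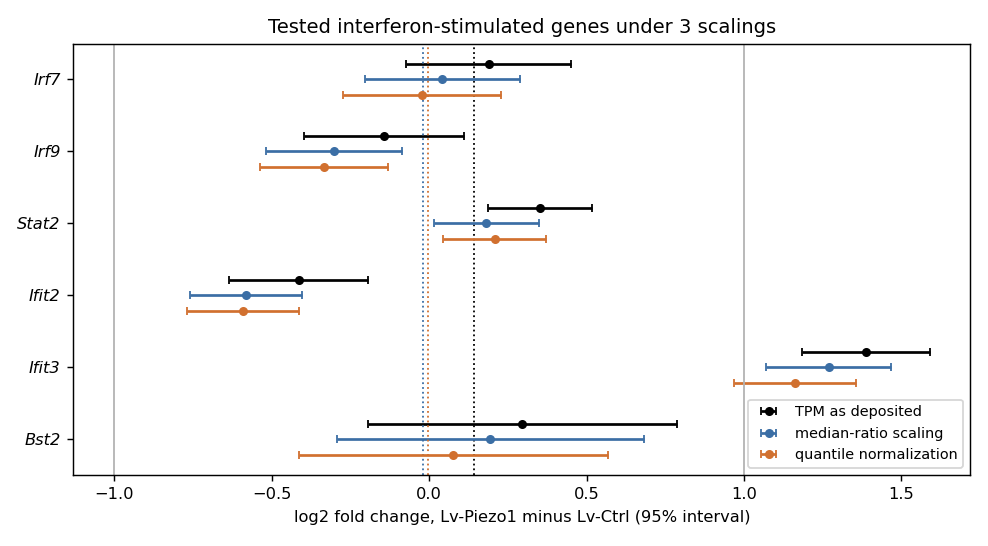
Log2 fold change (Lv-Piezo1 minus Lv-Ctrl) of the 6 tested interferon-stimulated genes with its 95% interval from limma, on the deposited TPM (black), after median-ratio scaling (blue) and after quantile normalization (orange). Dotted lines mark the median of all tested genes under each scaling and grey lines the fold change threshold. Ifit3 alone lay beyond the threshold, at 1.39, 1.27 and 1.16, and Ifit2 lay below 0 under all 3 scalings.

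Around the members, genes of the receiving side of the pathway were expressed, while all but one of the interferon genes were listed at 0. Of the 8 interferon ligand genes found in the table, 7 were listed at 0 in all 8 samples, interferon beta (Ifnb1), Ifna1, Ifna4 and Ifng among them. The eighth, Ifne, which encodes an interferon known from epithelia of the reproductive tract, had 5.38 ± 1.33 and 3.52 ± 0.58 TPM (SD, n = 4 each) in the libraries labelled Lv-Ctrl and Lv-Piezo1 and was not called. Of the receptor and kinase genes 8 of 9 were tested and 0 were called by limma, beside 7.67% of all tested genes. At an adjusted p below 0.05, 6 were higher and 0 lower, beside 41.9% and 16.3% of all tested genes, and the median log2 fold change was 0.29. Ifnar1 had 25.7 ± 1.83 and 26.3 ± 1.72 TPM, a log2 fold change of 0.03 (95% interval -0.11 to 0.18). Ifnar2 had 17.8 ± 0.50 and 20.2 ± 0.37 TPM, a log2 fold change of 0.17 (limma adjusted p = 0.0042). The kinase genes Jak1 (44.8 ± 5.06 and 49.7 ± 4.65 TPM) and Tyk2 (9.68 ± 0.87 and 11.8 ± 0.29 TPM, SD, n = 4 each) differed by 0.15 and 0.26 on the log2 scale, with limma adjusted p of 0.19 and 0.0064.

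**Figure D3:**
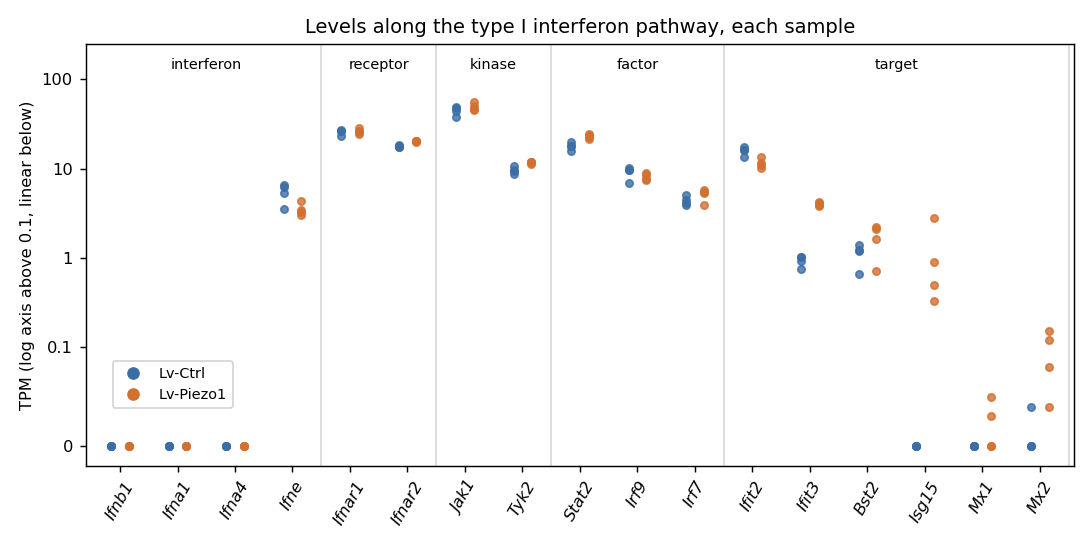
TPM of genes along the type I interferon pathway in each library labelled Lv-Ctrl (blue) and Lv-Piezo1 (orange), on a log axis above 0.1 TPM and a linear one below. Ifnb1, Ifna1 and Ifna4 were listed at 0 in all 8 samples, the receptors, kinases and factors lay between 3.87 and 55.9 TPM, and Mx1 and Mx2 stayed at or below 0.15 TPM.

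Of the genes that sense nucleic acids or pass on the signal, 14 were tested. Their mean level was highest for the transcription factor gene Irf3, at 158.7 ± 3.84 and 173.3 ± 4.37 TPM (SD, n = 4 each) in the libraries labelled Lv-Ctrl and Lv-Piezo1. Of the 14, 0 were called higher and 1 lower, beside 4.91% and 2.76% of all tested genes. The 1 called was Sting1, the adaptor downstream of the cytosolic DNA sensor cGAS. It measured 5.13, 5.21, 5.85 and 3.85 TPM in the libraries labelled Lv-Ctrl and 2.58, 1.52, 1.77 and 1.91 TPM in the libraries labelled Lv-Piezo1, a log2 fold change of -1.03 (standard error 0.14, limma adjusted p = 2.1e-04). The groups did not overlap, but Sting1 lay so close to the threshold that it was not called without replicate 3 labelled Lv-Ctrl or without replicate 2 labelled Lv-Piezo1. The other 13 included the RNA sensors Ddx58 and Ifih1. Among them 5 were higher and 0 lower at a limma adjusted p below 0.05, where 41.9% of all tested genes were higher and 16.3% lower, and 4 further sensing genes were below 1 TPM in every sample, the endosomal receptors Tlr7 and Tlr9 included.

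Of the 5 genes for enzymes that attach or remove ISG15, 4 were tested. The fifth, the ligase gene Herc6, was below 1 TPM in every sample, at 0.525 ± 0.13 and 0.885 ± 0.10 TPM (SD, n = 4 each). Of the 4, 0 were called by limma, beside 7.67% of all tested genes. At an adjusted p below 0.05, 0 were higher and 2 lower, beside 41.9% and 16.3% of all tested genes. Uba7, 1 of the 2 and named here after its values were seen, had a mean under 1 TPM in the libraries labelled Lv-Piezo1. It passed the filter on low TPM only through the libraries labelled Lv-Ctrl. Usp18, named here after its values were seen, encodes the protease that removes ISG15 and also restrains the interferon receptor. It had 19.7 ± 1.51 TPM in the libraries labelled Lv-Ctrl and 9.57 ± 1.62 TPM in the libraries labelled Lv-Piezo1 (SD, n = 4 each), without overlap, a log2 fold change of -0.98 (standard error 0.11, limma adjusted p = 7.6e-05), just under the fold change threshold. It passed that threshold after median-ratio scaling (-1.14) and quantile normalization (-1.14).

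Of the 11 negative regulators, all tested, 2 were called higher and 0 lower, beside 4.91% and 2.76% of all tested genes. At a limma adjusted p below 0.05, 8 were higher and 0 lower, beside 41.9% and 16.3%. Samhd1, 1 of the 8 and named here after its values were seen, had a mean of 0.89 TPM in the libraries labelled Lv-Ctrl. It passed the filter on low TPM only through the libraries labelled Lv-Piezo1. The median log2 fold change of the list was 0.43. Ptpn6, which encodes the phosphatase SHP-1 and is best known from blood cells, rose from 1.35 ± 0.41 to 5.90 ± 2.84 TPM (log2 fold change 1.48, standard error 0.28). Tnfaip3, which encodes the NF-κB inhibitor A20, rose from 2.18 ± 0.41 to 7.79 ± 0.77 TPM (SD, n = 4 each, log2 fold change 1.47, standard error 0.11). Both are also controlled outside the interferon pathway. Of the 12 leukocyte markers, Cd68 had 0.955 ± 0.90 and 12.3 ± 0.90 TPM and was called, passing the filter only through the libraries labelled Lv-Piezo1. Cd14 had 20.9 ± 0.32 and 25.8 ± 1.91 TPM (SD, n = 4 each) without overlap, and the other 10 summed to at most 0.57 TPM in any sample. The part of these markers in the Ptpn6 result was not tested.

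Among 34 tested rows of other antiviral genes, 4 were called higher and 1 lower, beside 4.91% and 2.76% of all tested genes. The median log2 fold change was 0.11, just under that of all genes. The largest rise was that of Lgals9, which encodes the lectin galectin-9, from 0.878 ± 0.18 to 16.2 ± 1.5 TPM (log2 fold change 3.20, standard error 0.10). Lgals3bp, a secreted galectin ligand, rose from 10.4 ± 0.82 to 31.7 ± 1.46 TPM, and Oasl, an oligoadenylate synthetase-like gene, from 0.815 ± 0.15 to 3.66 ± 0.57 TPM. The fourth, Ifitm1, named here after its values were seen, encodes a membrane protein that blocks virus entry and rose from 2.19 ± 0.68 to 7.06 ± 1.21 TPM. Rtp4, an interferon-induced chaperone of receptors, fell from 9.18 ± 1.75 to 2.18 ± 0.66 TPM (SD, n = 4 each, log2 fold change -1.69, standard error 0.17). Like Ifit3, Lgals9 and Oasl passed the filter only through the libraries labelled Lv-Piezo1. The most abundant genes of the list, named here after their values were seen, were lower without overlap and did not reach the fold change threshold. Ifitm2 had 1481 ± 54.0 and 1110 ± 35.7 TPM, and Ifitm3 had 1260 ± 61.8 and 942 ± 38.3 TPM. Ifi27, an interferon alpha-inducible gene, had 708 ± 18.7 and 473 ± 12.8 TPM, and Ifi27l2b had 484 ± 25.7 and 379 ± 28.3 TPM (SD, n = 4 each). Their log2 fold changes were -0.42, -0.42, -0.58 and -0.35, with limma adjusted p of at most 7.0e-04. The summed TPM of the list was between 4052 and 4366 in the libraries labelled Lv-Ctrl and between 3080 and 3321 in the libraries labelled Lv-Piezo1. Reads shared by Ifitm2 and Ifitm3, which are similar in sequence, may make their split uncertain. Without the fold change threshold, 16 of the 34 were higher and 10 lower at a limma adjusted p below 0.05, beside 41.9% and 16.3% of all tested genes. Slfn2, 1 of the 16 and named here after its values were seen, had a mean of 0.74 TPM in the libraries labelled Lv-Ctrl. Like Lgals9 and Oasl, it passed the filter only through the libraries labelled Lv-Piezo1. Classical interferon-induced genes at very low levels stood beside these: 13 of the 49 rows were below 1 TPM in every sample, among them Rsad2, Cmpk2, Oas1a and Oas2.

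Of the 14 tested rows of interferon gamma targets, 2 were called higher and 0 lower, beside 4.91% and 2.76% of all tested genes. Their median log2 fold change was 0.28. At a limma adjusted p below 0.05, 7 were higher and 4 lower, beside 41.9% and 16.3%. Among those lower was Nlrc5, the most abundant gene of the list, named here after its values were seen. It had 708 ± 141 and 533 ± 41.1 TPM (SD, n = 4 each, log2 fold change -0.39, limma adjusted p = 0.032), with overlapping groups. The chemokine gene Cxcl10 rose from 4.98 ± 0.85 to 22.1 ± 1.06 TPM (log2 fold change 1.96, standard error 0.10). The adhesion molecule gene Icam1 rose from 76.5 ± 2.82 to 163.5 ± 2.88 TPM (SD, n = 4 each, log2 fold change 1.09, standard error 0.03), and it was under the fold change threshold after median-ratio scaling, at 0.91. Both also respond to NF-κB. Of the genes called in these lists, Ptpn6 had the highest limma adjusted p, 0.0015. Ifng was listed at 0, and the chemokine genes Cxcl9 and Cxcl11 were below 1 TPM in every sample.

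**Figure D4:**
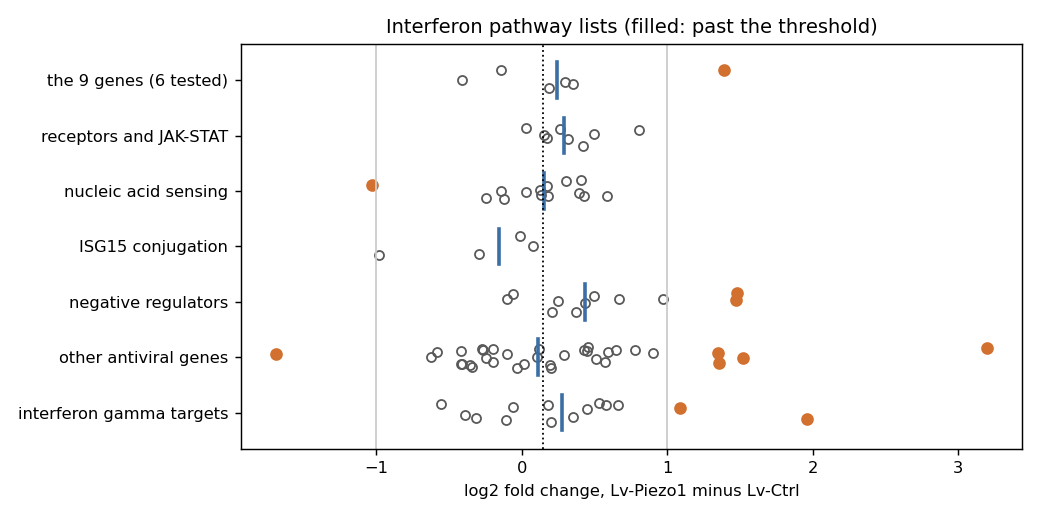
Log2 fold change (horizontal axis, Lv-Piezo1 minus Lv-Ctrl) of every tested gene among the 9 members and in 6 lists of the interferon pathway. Filled points passed the threshold of the limma test, open points did not, grey lines mark a log2 fold change of 1 in either direction, blue bars are list medians and the dotted line is the median of all tested genes at 0.14. Called genes lay on both sides of 0, with Lgals9 the farthest to the right at 3.20 and Rtp4 the farthest to the left at -1.69.

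For Irf7, Irf9 and Bst2 the replicates within each group spread over a wider range than the difference between the group means. The mean deviation of the 6 tested members from their group means ran from -0.15 in replicate 3 to 0.13 in replicate 4 labelled Lv-Piezo1, and from -0.08 to 0.09 in the libraries labelled Lv-Ctrl (log2 scale). The 5 genes whose deviations were most like this mean, by Pearson's r over the 8 samples after removing the group means, were Mrm1 (0.98), Heatr1 (0.97), AABR07040947.1 (0.97), Zfp324 (0.97) and Rap1gap2 (0.97). They were picked as the highest of all tested genes over 8 samples that share their libraries, so the values are a description only.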

How the data were processed

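RNA-seq covered 8 libraries, 4 with the label Lv-Ctrl and 4 with the label Lv-Piezo1. After discarding low-quality, adapter and poly-N reads, the authors aligned with HISAT2 against the rat genome and rebuilt transcripts with StringTie. The table holds TPM as deposited by the authors, rounded to 2 decimals, with the mean of each group beside the samples. The paper's methods name FPKM and DESeq. The submitters' processing notes name DESeq2 and mm10, a mouse build, while the identifiers are those of rat genes. The annotation is not given in the sources used here. TPM keeps no depth, so no counting error is given and no count model was fitted.

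log2(TPM + 1) was tested with limma 3.58.1 (R 4.3.3, moderation with a trend, no block, Benjamini-Hochberg adjustment over 13103 genes whose mean TPM was 1 or more). Calls needed a log2 fold change of 1 or more in size with an adjusted p below 0.05. Single genes also had an exact two-sided permutation test over 70 relabelings. The fit was tested on simulated data. The named genes are the 9 members, Piezo1, Ifnar1, Ifnar2, Jak1 and Tyk2, the up to 3 called genes with the largest rise and the up to 3 with the largest fall in each pathway list, and the 5 genes most like the members. The members and lists were chosen with earlier results of these data known, and the lists come from general knowledge. Genes of the lists with no matching row were not analysed here. Promoter sequences are those of RefSeq (GRCr8), whose build was not matched to that of the table. Alternatives were a pseudocount of 0.1, other filters on low TPM, 2 other scalings, leaving out mitochondrial genes, no trend, blocking on the replicate number, dropping the fold change threshold and leaving out each sample in turn. Samples with the same replicate number did not deviate together.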

Additional observations from a re-analysis of the deposited data

Results flagged for a closer look

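Among 46 groups of 4 samples, those of the named genes, a single sample stood apart by Dixon's criterion in 4, and chance flags about 1 group in 20. Irf9 in replicate 3 labelled Lv-Ctrl was at 6.98 TPM, with the other 3 samples of the group at 9.67 to 10.2 TPM. Mx2 in replicate 3 labelled Lv-Ctrl was at 0.04 TPM, with the others listed at 0. Ptpn6 in replicate 2 labelled Lv-Ctrl was at 0.74 TPM, with the others at 1.54 to 1.57 TPM. Oasl in replicate 2 labelled Lv-Piezo1 was at 2.80 TPM, with the others at 3.89 to 4.01 TPM.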

How the results depend on the processing

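Of 310 recomputed values, 281 counted as the same, 28 moved and 1 reversed. A tested gene counted as the same if it kept its direction and its side of the threshold. A count did so if it stayed within 1.5 times. The untested Isg15, Mx1 and Mx2 did so if the difference moved by less than the larger group SD of log2(TPM + 1). Changing the filter, the trend or the block leaves those differences as they are. Irf7 reversed, to -0.022 after quantile normalization. With a mean TPM of at least 5, 628 genes were called in place of 1005, 0 members (Ifit3, Irf7 and Bst2 were not tested), 0 sensing genes, 0 negative regulators and 3 other antiviral genes. With no fold change threshold the counts were 7626 for all genes, 3 members, 1 ligand, 6 receptor and kinase genes, 6 sensing genes, 2 genes of ISG15 conjugation, 8 negative regulators, 26 other antiviral genes and 11 interferon gamma targets. With a pseudocount of 0.1 the differences were 3.22 for Isg15, 0.24 for Mx1 and 0.83 for Mx2, and 1 receptor gene and 1 gene of ISG15 conjugation were called. That 1 conjugation gene, Usp18, was also called after median-ratio scaling, quantile normalization and leaving out mitochondrial genes. Median-ratio scaling left 1 interferon gamma target. Leaving out each sample in turn gave 0 to 1 called sensing genes (0 without replicate 3 labelled Lv-Ctrl or replicate 2 labelled Lv-Piezo1) and 0 to 1 genes of ISG15 conjugation (1 without replicate 4 labelled Lv-Ctrl or replicate 1 or 3 labelled Lv-Piezo1). Causes were not tested.

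Samples with the same replicate number had correlated deviations of -0.058 to -0.012 over the 4 pairs, so the numbers were not treated as pairs. With the replicate block 1004 genes were called, Ifit3 had the same log2 fold change of 1.39 and stayed the 1 member called, and no list count changed. TPM keeps no depth, so counting error limits the genes near 0 to an unknown extent.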

Other observations

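Il10rb, the receptor chain shared by the interleukin 10 and type III interferon receptors, was below the limit for testing and was named after its values were seen. Its values were 4.57, 2.06, 0 and 0.15 TPM in libraries 1 to 4 labelled Lv-Ctrl. It was listed at 0 in 3 samples labelled Lv-Piezo1, and measured 0.35 TPM in replicate 3. The groups overlapped (exact two-sided permutation p = 0.26). Cd68, a lysosomal protein often used as a macrophage marker, rose from 0.955 ± 0.90 to 12.3 ± 0.90 TPM (SD, n = 4 each, log2 fold change 2.88, limma adjusted p = 2.7e-05). It passed the filter on low TPM only through the libraries labelled Lv-Piezo1. Cd14, a monocyte receptor also made by other cells, had 20.9 ± 0.32 and 25.8 ± 1.91 TPM without overlap (log2 fold change 0.29, limma adjusted p = 0.0015), and Adgre1, C1qa, C1qb, Cd163, Laptm5 and Tyrobp of the same list were listed at 0 in every sample.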
